A study of Mus musculus with 16 samples.

Results

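This account covers the ventricle comparison of a mouse study in which 2 related transcription factor genes, Meis1 and Meis2, were deleted in heart muscle of adults. Its members are 8 of the 16 sequenced libraries, namely the ventricles of 4 idKO mice and 4 control mice, and the 13144 of 16118 genes in the table that reached a per-million share of 1 of the summed values in at least 4 of those 8 libraries. The members were picked by their labels and by that filter, and no genotype difference entered the choice. The other 8 libraries are the atria of the same mice. All 8 animals were male adult littermates carrying Meis1flox/flox and Meis2flox/flox, all received tamoxifen, and hearts were collected 2 weeks later. The idKO mice were tg/wt for the α-MHC-MerCreMer transgene, which makes a tamoxifen-dependent Cre recombinase under a cardiomyocyte promoter. The controls had no transgene (wt/wt), and the labels do not give the number of transgene copies. The controls therefore share the floxed alleles and the drug but not the Cre, and an effect of the transgene itself cannot be told apart from an effect of the deletion. The age of the mice in weeks and the floxed exons are not given in the labels. Polyadenylated RNA of the tissue was sequenced as single reads of 60 bases, so a gene value sums over all cells of the ventricle, and fewer cells of a type and less RNA per cell cannot be told apart.

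MEIS1 and MEIS2 belong to the TALE class of homeodomain proteins, which bind DNA next to partners of the PBX and HOX families and, in heart, near sites of GATA, TBX and NKX factors. They are best known for patterning the embryonic heart and limb, and Meis1 also for cell cycle exit of cardiomyocytes after birth. In the adult ventricle, cardiomyocytes hold most of the RNA, and genes for ion channels, calcium release, contraction and fuel oxidation make up much of it.

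The genotype labels were checked first. Meis2 (chromosome 2, 115863064 to 116065839) measured 32.6, 26.6, 22.4 and 25.6 in controls and 7.78, 8.51, 9.35 and 9.66 in idKO ventricles (normalised read count, that is reads on a per-million scale of an effective library size, used throughout for levels), so all idKO libraries lay below all controls. Meis1 (chromosome 11, 18879817 to 19018985) measured 26.8, 28.4, 26.9 and 27.0 in controls and 25.4, 23.3, 23.6 and 19.9 in idKO ventricles. The groups did not overlap, but Meis1 was not called over all genes (limma adjusted p = 0.24, Benjamini-Hochberg). Whole-gene values do not show whether the floxed exons were removed, so Meis1 neither checks nor contradicts the label. Reads of Esr1, which supplies the hormone-binding domain of the MerCreMer fusion, were between 0.318 and 1.84 in controls and between 2292 and 3641 in idKO ventricles. The chamber label was checked with myosin light chain genes: the ventricular Myl2 measured 6769 to 8857 over the 8 ventricles and 1.46 to 111 over the atria, whereas the atrial Myl7 measured at most 14.4 in ventricles and at least 4526 in atria.

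Libraries held 15.4 to 21.8 M reads in genes, which limits precision mainly for genes of a few counts. The effective size set by the authors was 0.622 to 0.650 of the reads in control ventricles and 0.649 to 0.727 in idKO ventricles. Reads of mitochondrially encoded genes made up 30.1% to 31.8% of control libraries and 28.2% to 30.7% of idKO libraries. In 3 of 4 idKO ventricles that share was below all controls. The replicates are separate mice. Over all tested genes the SD divided by the mean had a median of 0.106 in controls and 0.112 in idKO ventricles.

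The ventricle response was mostly a loss of transcripts under the authors' scaling. Heart muscle genes of excitation, calcium release and the sarcomere were among the genes that fell, and the natriuretic peptide genes, a skeletal actin gene, antigen presentation genes and a few enzymes were among those that rose. On log2(value + 1), limma called 267 of 13144 genes at an adjusted p under 0.05 (2.03%), 70 higher in idKO (0.533%) and 197 lower (1.5%). Below, a gene is called, passes, rises or falls by this limma test unless another tool is named. At an unadjusted limma p under 0.05 there were 1967 of the 13144 genes, against which such counts for gene lists are read. Counts by other tools are read against their own totals over the 13144 genes. These were 77 higher and 183 lower for edgeR, and 195 and 342 for DESeq2. Changes reached 2-fold in 11 of the rises and 28 of the falls, and 1.5-fold in 32 and 66. The median fold change was 0.57 (log2) for called rises and -0.48 for called falls, against -0.01 over all tested genes. Of all 13144 tested genes 6307 had a positive difference and 6837 a negative one, against which sign counts of gene lists are read. Libraries of the groups did not overlap in 417 genes with idKO above (3.17%) and 764 with idKO below (5.81%), and in 263 of the 267 called genes. The other 4 were Gcnt1, H19, Rab11b-ps2 and Tubb2a, all higher in idKO. The split into rises and falls moved with the scaling: with reads divided by all recovered reads of a library, an analysis added after seeing the data, limma called 153 higher and 108 lower, and a DESeq2 run gave 195 and 342. That division by all recovered reads moved the median of all genes to 0.09 and made 9370 of the 13144 differences positive. Medians of gene lists below are therefore read against that of all genes. Those of inward rectifiers, the reticulum, contractile genes, disc adhesion genes and S to M phase genes turned positive under that rescaling. Calls were denser among abundant genes. With the tested genes cut into 4 equal parts by level, 4.50% of the highest part were called, 28 higher and 120 lower, and 0.73% of the lowest. The median difference (log2) was -0.05 in the highest part and 0.03 in the lowest.

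**Figure D1:**
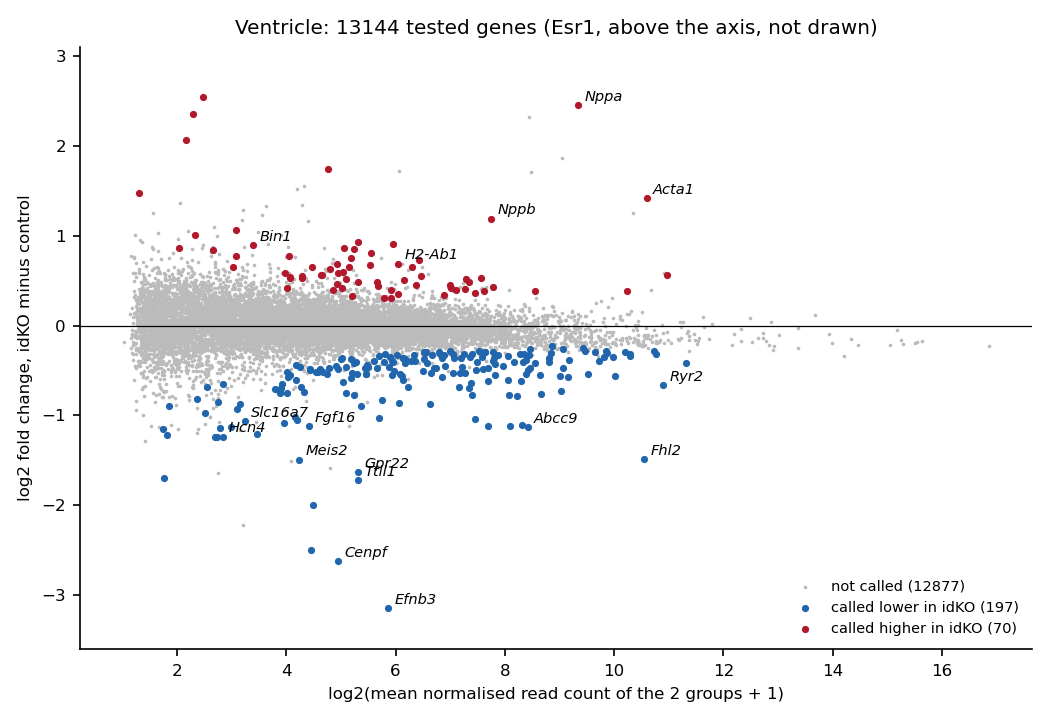
Each point is 1 of 13144 tested genes in ventricles; the horizontal axis is log2 of the mean normalised read count plus 1 and the vertical axis the log2 fold change of 4 idKO against 4 control libraries. Blue points are the 197 genes called lower and red points the 70 called higher by limma, and the falls reach abundant genes such as Fhl2 and Ryr2; Esr1 lies above the axis and is not drawn.

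Because single libraries shaped the counts, each called gene was followed through 24 other analyses, 8 of which leave out 1 library. In 68 genes the call remained in every analysis that tested the gene, 12 of them higher (0.0913% of those tested) and 56 lower (0.426%). In 154 of the 267 genes it was lost on leaving out at least 1 library, and in none did the direction turn. For the 263 called genes without overlap between groups, leaving out 1 library could not turn it. Calls numbered 35 higher and 97 lower without control 4, and 103 and 256 without idKO 4. Over the 267 called genes, idKO 4 was the idKO library nearest to the control mean in 116 and idKO 2 the farthest in 133. The text calls the 68 genes stable. The rises among them included Nppa, Nppb, Bin1, Polr1e, Adam19, Il13ra1, Ypel2, Lipo2, Esr1 and 2 predicted genes. Lipo2 passed the filter on low values through the idKO group alone, and Scn10a among the falls through the control group alone, so these calls follow in part from the filter and support nothing further. Without a trended prior limma called 19 higher and 70 lower. Every gene whose loss on leaving out a library is given below, D330025C20Rik apart, lost its call there too. So did Adamts1, Cacna2d1, Cmya5, Corin, H2-Aa, H2-Ab1, Hif1a, Irx4, Kcng2, Kcnip2, Mrpl39, Pfkp, Slc2a4 and Slc8a1, in that analysis alone (limma adjusted p 0.0504 for Pfkp to 0.087 for Slc2a4).

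The largest stable falls were of Efnb3, Cenpf, Ttll1, Gpr22, Meis2 and Fhl2. Efnb3 (chromosome 11, 69554092 to 69560205), a membrane-bound ephrin ligand that signals to Eph receptors of neighbouring cells, measured 113, 97.7, 83.3 and 120.2 in controls and 14.99, 8.26, 8.74 and 12.1 in idKO ventricles. Every idKO ventricle lay far below every control, and the mean fell to 10.6% of control (log2 difference -3.14 ± 0.16 (SE), adjusted p = 3.1e-07 by limma). Of 11 tested ephrins and Eph receptors Efnb3 alone was called; Ephb4 went from 60.0 ± 1.99 to 60.9 ± 8.73 and Epha4 from 48.9 ± 11.7 to 36.9 ± 5.88 (SD, n = 4), neither called. Ttll1 (chromosome 15, 83483769 to 83510893), a tubulin polyglutamylase subunit, measured 56.5, 54.6, 63.8 and 65.5 in controls and 17.8, 15.9, 16.8 and 19.4 in idKO ventricles, and fell to 29.1% of control (log2 difference -1.72 ± 0.09 (SE), adjusted p = 3.1e-07 by limma). Of 19 tested enzymes that write or erase tubulin marks limma and edgeR called Ttll1 alone and DESeq2 called 2. Fhl2, a LIM-only scaffold protein of the sarcomere and nucleus, measured 2316, 2397, 2064 and 2049 in controls and 844, 710.3, 685 and 932 in idKO ventricles (log2 difference -1.48 ± 0.09 (SE), adjusted p = 1.8e-06 by limma). All idKO libraries lay far below the lowest control.

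Promoter letters are shown for 3 of the large falls because MEIS proteins bind a short core, TGACAG, which can be looked for. RefSeq promoter windows (GRCm38.p6, 250 bases before to 50 after each start site) were matched by symbol for 9760 of the 13144 tested genes. The core TGACAG, on either strand (CTGTCA when read on the other), lay in 17.0% of 12503 windows of tested genes, in 22.2% of the 216 windows of genes called lower, in 22.2% of the 63 windows of genes called higher and in 19.2% of all 32851 windows of the table. The share was therefore the same to 3 digits for genes that fell and genes that rose. Of the 30 falls named by size, 22 had a window and 9 held the core. Windows of the 3 largest of these outside predicted names follow, on the strand of the gene with the core in capitals. That of Gpr22 is chr12:31713834-31714133 on the minus strand, that of Cntn2 chr1:132542891-132543190 on the minus strand and that of Lrrc10 chr10:117045091-117045390 on the plus strand.
Gpr22: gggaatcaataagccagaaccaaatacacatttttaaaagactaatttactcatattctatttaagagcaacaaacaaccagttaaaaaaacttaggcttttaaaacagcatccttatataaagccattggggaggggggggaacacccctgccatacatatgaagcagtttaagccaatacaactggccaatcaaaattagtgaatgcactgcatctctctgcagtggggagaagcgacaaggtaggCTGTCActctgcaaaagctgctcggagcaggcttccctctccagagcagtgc
Cntn2: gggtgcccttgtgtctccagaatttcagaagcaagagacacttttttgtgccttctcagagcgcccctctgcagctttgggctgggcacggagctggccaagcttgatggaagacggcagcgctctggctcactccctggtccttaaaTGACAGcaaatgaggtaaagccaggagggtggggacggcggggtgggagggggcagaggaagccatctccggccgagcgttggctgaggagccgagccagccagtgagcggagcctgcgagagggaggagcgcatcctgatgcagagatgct
Lrrc10: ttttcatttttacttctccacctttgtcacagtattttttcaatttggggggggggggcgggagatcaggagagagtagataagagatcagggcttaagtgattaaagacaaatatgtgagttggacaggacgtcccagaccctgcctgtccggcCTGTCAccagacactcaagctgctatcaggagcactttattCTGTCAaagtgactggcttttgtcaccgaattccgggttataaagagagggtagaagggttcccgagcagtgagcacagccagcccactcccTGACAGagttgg
In Gpr22 the core begins 2 bases before the start site, in Cntn2 102 bases before it, and Lrrc10 has 3 matches, the first 95 bases before its start. A match is a run of letters and was not read as a bound site.

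Gpr22 (chromosome 12, 31706867 to 31713947), an orphan G protein-coupled receptor of heart muscle and brain, measured 73.4, 46.2, 56.3 and 61.3 in controls and 23.9, 16.1, 14.5 and 19.7 in idKO ventricles, and fell to 31.3% of control (log2 difference -1.63 ± 0.15 (SE), adjusted p = 6.7e-05 by limma). It lies inside Cog5 on the other strand, and no source used here states that counting used strand, so reads of the pair may not be told apart; Cog5 itself was not called (-0.27). Fhl2 likewise overlaps Gm8210, Cacna1c overlaps Dcp1b, Pfkfb1 overlaps Apex2 and Prkg1 overlaps Cstf2t. Lrrc10 (chromosome 10, 117045341 to 117046768), a leucine-rich repeat protein found mainly in heart muscle, measured 215, 263, 229 and 234 in controls and 121, 121, 96.6 and 118 in idKO ventricles (log2 difference -1.04 ± 0.08 (SE), adjusted p = 2.0e-05 by limma). All idKO libraries lay far below the lowest control, and idKO 3 was the lowest. Cntn2, an adhesion molecule of the conduction system and of nerves, was low in all libraries, at 8.05, 10.9, 7.60 and 6.39 in controls and 4.44, 4.11, 1.32 and 2.42 in idKO ventricles (log2 difference -1.24 ± 0.25 (SE), adjusted p = 0.024 by limma). Its call was lost on leaving out control 1, 2 or 3, with a limma adjusted p of up to 0.077.

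Of genes tied to the sodium current, Fgf13 fell in a stable call. It encodes a fibroblast growth factor homologue that stays in the cell and binds sodium channels, and measured 85.3, 78.3, 85.7 and 84.9 in controls and 59.2, 48.1, 55.8 and 56.2 in idKO ventricles (log2 difference -0.60 ± 0.08 (SE), adjusted p = 0.00075 by limma). The groups did not overlap. Scn10a, a sodium channel gene of heart and sensory neurons, measured 3.15, 3.78, 3.17 and 4.42 in controls and 1.18, 1.31, 1.02 and 0.835 in idKO ventricles. Its libraries passed the filter on low values through the control group alone, so its lower values in idKO are given as a description. Gpd1l, a modulator of the current, went from 95.8 ± 6.34 to 101 ± 5.55 and did not pass.

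Genes of potassium currents fell where they passed, except Kcnj14. Of 16 tested voltage-gated subunits 3 fell and none rose, with a list median of -0.14. Kcnh2, the pore of the rapid delayed rectifier current, measured 114, 118, 128 and 147 in controls and 84.7, 66.2, 56.7 and 68.6 in idKO ventricles (log2 difference -0.87 ± 0.11 (SE), adjusted p = 0.00083 by limma). Kcnv2, a silent subunit that changes Kv2 channels, measured 19.6, 22.5, 25.1 and 26.9 in controls and 9.75, 10.5, 8.52 and 15.3 in idKO ventricles (log2 difference -1.05 ± 0.16 (SE), adjusted p = 0.0033 by limma). Both calls were stable and their groups did not overlap. Kcnip2, the partner of Kv4 channels in the transient outward current, fell from 267 ± 15.2 to 184 ± 29.5 (SD, n = 4; log2 difference -0.55 ± 0.09 (SE), adjusted p = 0.0087 by limma), with idKO 4 nearest to the controls at 223. Kcng2, another silent subunit and not in the list, fell from 169 ± 14.4 to 117 ± 12.4 (log2 difference -0.52 ± 0.08 (SE), adjusted p = 0.0049 by limma), but it overlaps D330025C20Rik on the other strand, which also fell (-0.87, a call lost without control 4). The pore genes Kcnd2 and Kcnq1 were not called; Kcnq1 went from 54.3 ± 3.59 to 45.6 ± 4.57 with a log2 difference of -0.25. The accessory subunit Kcne1, picked out after its values were seen, went from 10.4 ± 1.27 to 19.2 ± 6.85 without passing (limma adjusted p = 0.077).

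The inward rectifier list gave 1 rise and 2 falls among 12 tested genes, with a median of -0.08. Abcc9 (chromosome 6, 142587862 to 142702315), the SUR2 subunit that lends nucleotide and drug sensitivity to ATP-sensitive potassium channels, measured 489, 422, 452 and 505 in controls and 199.7, 187, 212 and 260.4 in idKO ventricles. It fell to 46.0% of control in a stable call (log2 difference -1.13 ± 0.09 (SE), adjusted p = 2.0e-05 by limma). Its pore partner Kcnj11 went from 217 ± 9.65 to 177 ± 13.99, a smaller fall (log2 difference -0.30 ± 0.07 (SE), adjusted p = 0.035 by limma) that was lost on leaving out any library except idKO 4, with an adjusted p of up to 0.12. Kcnj14 rose from 2.25 ± 0.611 to 5.73 ± 2.17 (log2 difference 1.01 ± 0.24 (SE), adjusted p = 0.045 by limma), also a call that 6 of the 8 removals ended, those of control 1, 3 and 4 and idKO 2, 3 and 4 (limma adjusted p up to 0.13). The main inward rectifier gene Kcnj2 went from 69.5 ± 4.30 to 56.2 ± 7.55 (log2 difference -0.31) and the leak channel gene Kcnk3 from 372 ± 13.7 to 338 ± 28.5, neither called.

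Genes of the electrical junctions and of pacemaking showed a few large falls. Gja1 (chromosome 10, 56377330 to 56402513), encoding connexin 43, the main gap junction protein of the ventricle, measured 523, 375, 415 and 432 in controls and 199, 178, 209 and 218 in idKO ventricles. It fell to 46.1% of control (log2 difference -1.11 ± 0.09 (SE), adjusted p = 2.1e-05 by limma), a stable call, while 4 other connexin genes were not called, among them Gjc1 from 24.1 ± 2.37 to 29.5 ± 3.23 and Gja5 from 5.03 ± 1.65 to 6.67 ± 1.12. Hcn4, the pacemaker channel, was low in ventricle at 10.4, 11.8, 6.59 and 7.10 in controls and 2.16, 2.84, 2.84 and 5.29 in idKO ventricles, and fell (log2 difference -1.23 ± 0.23 (SE), adjusted p = 0.013 by limma). Leaving out single libraries kept this call, and the analyses without the filter or without a trended prior lost it. In the list of 19 tested pacemaker and conduction genes Hcn4 and Cntn2 were the 2 called, and the median was -0.13. Wnk1, a kinase that controls ion cotransport, measured 667, 642, 641 and 642 in controls and 346, 341, 397 and 491 in idKO ventricles (log2 difference -0.73 ± 0.10 (SE), adjusted p = 0.00097 by limma), and idKO 4 was nearest to the controls. Slc4a3, a chloride and bicarbonate exchanger of heart muscle, fell from 396 ± 25.8 to 271 ± 12.02 (log2 difference -0.54 ± 0.06 (SE), adjusted p = 0.00032 by limma). Both were stable.

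**Figure D2:**
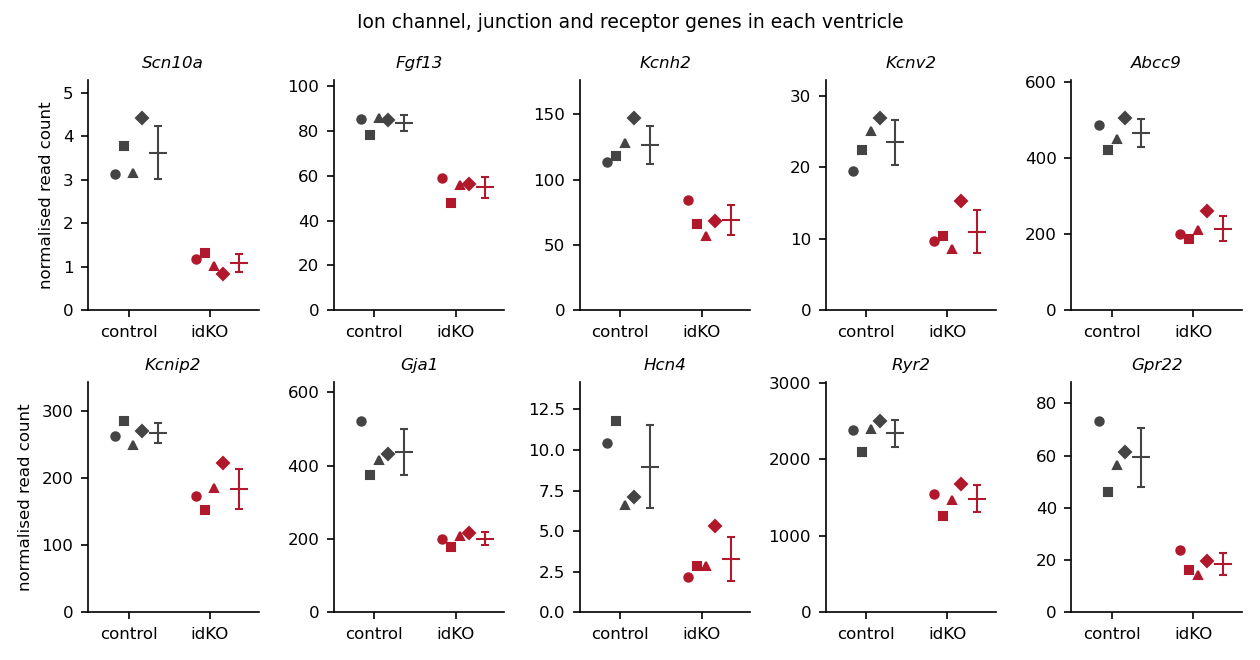
Normalised read counts of 10 genes in each ventricle, 4 control (grey) and 4 idKO (red) libraries, with mean and SD beside the points; circle, square, triangle and diamond are replicates 1 to 4, and each vertical axis starts at 0. All 10 genes were picked from the called falls, so that idKO is below control in each, without overlap, follows from the choice. Scn10a passed the filter on low values through the control group alone.

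Calcium entry and release genes moved downward where they passed. Ryr2 (chromosome 13, 11553102 to 12106945), through which stored calcium leaves the sarcoplasmic reticulum, measured 2379, 2090.2, 2395 and 2505 in controls and 1542, 1253, 1464 and 1680.2 in idKO ventricles, and fell to 63.4% of control in a stable call (log2 difference -0.66 ± 0.09 (SE), adjusted p = 0.0011 by limma). Slc8a1, the sodium and calcium exchanger of the cell membrane, fell from 205 ± 13.8 to 146 ± 17.7 (log2 difference -0.49 ± 0.09 (SE), adjusted p = 0.0089 by limma). The store protein gene Hrc fell from 1404 ± 60.6 to 1114 ± 137, with a limma adjusted p of 0.048. Leaving out any library other than idKO 4 ended that call, with an adjusted p of up to 0.14. Among 30 tested genes of the reticulum and of calcium transport limma called these 3, edgeR 4 and DESeq2 8 (median -0.03). The calcium pump gene Atp2a2 went from 21204 ± 834 to 16845 ± 1554 (log2 difference -0.34, limma adjusted p = 0.085) and its inhibitor Pln from 8419 ± 480.0 to 6982 ± 418 (adjusted p = 0.094), and neither passed. The store gene Casq2 went from 1368 ± 95.3 to 1412 ± 90.1. Of 15 calcium channel subunits and their inhibitors 2 fell. Cacna2d1, an accessory subunit, fell from 288.1 ± 20.6 to 211 ± 16.2 (log2 difference -0.45 ± 0.07 (SE), adjusted p = 0.0046 by limma), with no overlap. The pore gene Cacna1c fell from 366 ± 43.4 to 276 ± 22.7 (log2 difference -0.41 ± 0.09 (SE), adjusted p = 0.027 by limma), which leaving out control 1, 3 or 4 or idKO 2 or 3 ended (adjusted p up to 0.081).

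Membrane builders of the dyad, where the transverse tubule meets the reticulum, split. Bin1, which bends membranes into tubules, was higher in idKO at 6.98, 6.11, 5.38 and 6.61 in controls and 11.3, 16.2, 13.7 and 9.66 in idKO ventricles and rose in a stable call (log2 difference 0.90 ± 0.16 (SE), adjusted p = 0.0089 by limma). Cmya5, a large protein that holds dyads at the Z-disc, fell from 1234 ± 100.5 to 842 ± 126 (log2 difference -0.56 ± 0.10 (SE), adjusted p = 0.0082 by limma). The other 18 of 20 tested genes did not pass with limma, and DESeq2 called 5 of the 20; the junctophilin gene Jph2 went from 801 ± 17.0 to 665 ± 62.1 (limma adjusted p = 0.055) and Tcap from 2318 ± 131 to 2381 ± 238.

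Contractile and cytoskeletal genes gave both rises and falls. Mylk4 (chromosome 13, 32700834 to 32783954), a kinase of the myosin light chain kinase family, measured 412, 331, 340.4 and 399 in controls and 173, 139.9, 206 and 165 in idKO ventricles, and fell to 46.2% of control (log2 difference -1.12 ± 0.11 (SE), adjusted p = 6.7e-05 by limma). It was the 1 fall among 38 tested thin and thick filament genes, beside 3 rises by limma, where DESeq2 called 8 genes (list median -0.04). Of the rises, Acta1, the skeletal muscle actin, measured 627, 1031, 943 and 629 in controls and 1458, 2079, 4004 and 1613 in idKO ventricles; the groups did not overlap, but idKO 3 was well above the rest (log2 difference 1.42 ± 0.26 (SE), adjusted p = 0.013 by limma). The call was kept on leaving out any single library. It was lost without the filter, without a trended prior and in both fits with the atria (limma adjusted p up to 0.35). Myom2, an M-band protein, rose from 1635 ± 297 to 2388 ± 217 and Tnnt1, the slow skeletal troponin T, from 14.9 ± 1.65 to 22.3 ± 2.69. Leaving out control 1 or 2 or idKO 3 ended the call of both, idKO 2 that of Myom2 and control 4 that of Tnnt1, with limma adjusted p values of up to 0.067 and 0.085. The cardiac genes Myh6 and Actc1 went from 37758 ± 2151 to 36470.0 ± 3267 and from 12605 ± 1445 to 13585 ± 970.0, and were not called. Myh7, the slow myosin often read as a stress gene, went from 871 ± 880.2 to 1733 ± 921 with wide spread in both groups (limma adjusted p = 0.27).

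Among Z-disc and anchoring proteins the stable falls were of Nebl and of 2 LIM domain genes. Nebl, encoding nebulette of the cardiac Z-disc, measured 513, 439, 483 and 469 in controls and 351, 294.1, 321 and 330.2 in idKO ventricles (log2 difference -0.55 ± 0.07 (SE), adjusted p = 0.00065 by limma). Ablim1, an actin-binding LIM protein, fell from 615 ± 42.1 to 418 ± 33.5 (log2 difference -0.56 ± 0.07 (SE), adjusted p = 0.00076 by limma). In the list of 38 tested LIM genes 3 fell and 1 rose by limma and DESeq2 called 9, with a median of 0.07, and the abundant members Csrp3 (1324 ± 59.9 to 1285 ± 70.0) and Pdlim5 (1154 ± 67.2 to 1269.6 ± 116) were not called. Clasp1, which stabilises microtubule plus ends, fell from 340.4 ± 34.7 to 199.5 ± 26.6 (log2 difference -0.77 ± 0.09 (SE), adjusted p = 0.00067 by limma). Ctnna1, encoding αE-catenin, which ties cadherins to actin at the intercalated disc, fell from 874 ± 44.1 to 602 ± 12.2 (log2 difference -0.53 ± 0.05 (SE), adjusted p = 0.00014 by limma). Its 4 idKO values ran from 593 to 620.2 and its controls from 827 to 929. Of 22 tested disc adhesion genes 3 fell and none rose by limma, DESeq2 called 5, and Dsp, encoding desmoplakin, went from 1713 ± 131 to 1435 ± 99.8 without passing (limma adjusted p = 0.099).

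The natriuretic peptide genes rose, and the gene of the protease that activates one of them fell. Nppa (chromosome 4, 148000722 to 148002079), which encodes the atrial peptide, measured 159, 218, 189.6 and 174 in controls and 1356, 1635, 989 and 478 in idKO ventricles. The spread among idKO ventricles was wide, from 478 in idKO 4 to 1635 in idKO 2, and the lowest still exceeded all controls (log2 difference 2.45 ± 0.28 (SE), adjusted p = 0.00032 by limma). Nppb, the neighbouring gene of the B-type peptide 13517 bases away, measured 124, 156, 105 and 135 in controls and 237, 349, 315 and 290.5 in idKO ventricles (log2 difference 1.19 ± 0.12 (SE), adjusted p = 0.00016 by limma). Corin, the transmembrane protease that cleaves the atrial propeptide, measured 361, 371, 437 and 429.6 in controls and 293.7, 275, 255 and 313 in idKO ventricles, so the groups did not overlap (log2 difference -0.49 ± 0.08 (SE), adjusted p = 0.0062 by limma). Both rises were stable, and the fall of Corin was lost in 1 of 24 other analyses, that without a trended prior (limma adjusted p = 0.071). In the list of 22 tested stress and hypertrophy genes 4 rose and none fell, with 18 above zero and a median of 0.28. Its abundant members Ankrd1 and Xirp2 went from 1404 ± 187 to 1865 ± 398 and from 781 ± 49.0 to 942 ± 66.2 without passing. Ddit4, an inhibitor of the mTORC1 growth pathway, measured 33.8, 39.5, 36.4 and 60.7 in controls and 79.7, 104, 66.8 and 68.5 in idKO ventricles (log2 difference 0.90 ± 0.17 (SE), adjusted p = 0.014 by limma), and its call was lost in the fit with the atria without the mouse as block and without control 3 (for the latter, adjusted p = 0.0503).

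Receptors and secreted signals changed singly. Fgf16, a secreted growth factor of heart, measured 28.6, 24.2, 27.1 and 32.1 in controls and 13.7, 10.6, 11.2 and 14.1 in idKO ventricles, and fell to 44.3% of control (log2 difference -1.12 ± 0.12 (SE), adjusted p = 0.00021 by limma). Among 30 tested ligands of the FGF, EGF, VEGF, PDGF and IGF families limma and edgeR called Fgf16 alone and DESeq2 called 4. At an unadjusted limma p under 0.05 there were 11, beside 1967 of 13144 over all tested genes. Vegfa went from 301 ± 21.7 to 335 ± 14.8 and Fgf1 from 257 ± 28.1 to 258 ± 21.7. Il13ra1, a receptor subunit for interleukin 13, rose from 70.4 ± 4.84 to 104 ± 1.87 (log2 difference 0.56 ± 0.07 (SE), adjusted p = 0.00049 by limma), with all idKO values between 102 and 106. Of 25 tested G protein-coupled receptors 2 fell, Gpr22 and Adra1b. Adra1b, an α1 adrenergic receptor, went from 45.5 ± 3.64 to 31.2 ± 5.36 (log2 difference -0.54 ± 0.11 (SE), adjusted p = 0.024 by limma) and lost its call on leaving out control 1, 2 or 4 or idKO 2 or 3 (limma adjusted p up to 0.089). The muscarinic receptor Chrm2 went from 206 ± 9.35 to 210.4 ± 19.1 and the sphingosine phosphate receptor S1pr1 from 48.2 ± 10.2 to 64.0 ± 9.41, neither called. Rit1, a small GTPase of the Ras family, measured 76.2, 90.7, 87.1 and 84.3 in controls and 50.7, 40.0, 47.6 and 46.8 in idKO ventricles, a stable fall (log2 difference -0.86 ± 0.08 (SE), adjusted p = 9.2e-05 by limma).

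The matrix and cell surface held stable changes of both signs. Emilin2, an elastin-associated glycoprotein, measured 60.4, 68.5, 64.0 and 82.4 in controls and 42.3, 31.6, 26.5 and 33.3 in idKO ventricles (log2 difference -1.03 ± 0.13 (SE), adjusted p = 0.00075 by limma). Egflam, encoding pikachurin, which binds dystroglycan, fell from 19.3 ± 2.64 to 10.9 ± 0.419 (log2 difference -0.75 ± 0.12 (SE), adjusted p = 0.0037 by limma). Adam19, a membrane-bound metalloprotease, was higher in idKO at 23.4, 26.03, 19.0 and 22.1 in controls and 38.7, 42.9, 41.9 and 43.0 in idKO ventricles, and its rise was stable (log2 difference 0.86 ± 0.10 (SE), adjusted p = 0.00035 by limma). Adamts1, a secreted protease of proteoglycans, rose from 35.03 ± 6.16 to 56.0 ± 5.21 (log2 difference 0.67 ± 0.11 (SE), adjusted p = 0.0070 by limma). Sulf2 and Tgm2, a heparan sulfate sulfatase and a transglutaminase, fell from 79.3 ± 4.02 to 54.6 ± 5.84 and from 380.2 ± 26.2 to 247 ± 23.7. Each of these 2 overlaps a gene on the other strand that was not called (Ncoa3, 0.13, and Rprd1b, 0.01). None of 23 tested collagen genes was called by limma, although 19 had a positive difference (median 0.20); 6 had an unadjusted p under 0.05, and edgeR and DESeq2 called 1 each. Col3a1, a fibrillar collagen, went from 158 ± 42.1 to 216 ± 81.5.

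Transcription and RNA-processing factors of heart gave few calls. Of 39 tested cardiac factors 1 rose and 2 fell, with a median of 0.03. Irx4, a homeobox factor of ventricular identity, measured 35.9, 38.0, 42.7 and 38.1 in controls and 23.9, 21.0, 31.1 and 23.7 in idKO ventricles (log2 difference -0.63 ± 0.11 (SE), adjusted p = 0.0099 by limma). Lbh, a cofactor expressed in ventricle and limb, fell from 681 ± 64.2 to 461 ± 69.0 (log2 difference -0.57 ± 0.10 (SE), adjusted p = 0.0091 by limma); that call was kept on leaving out any single library and lost without a trended prior and in both fits with the atria, with and without the mouse as block (limma adjusted p up to 0.089). Tbx20, a T-box factor of heart muscle, rose from 109 ± 8.91 to 147 ± 13.6 (log2 difference 0.42 ± 0.08 (SE), adjusted p = 0.014 by limma); leaving out control 3 or 4 ended that call (adjusted p up to 0.051). Among the other TALE genes, Pbx2, which encodes a DNA-binding partner of MEIS proteins, went from 20.1 ± 2.77 to 18.8 ± 1.35 and was not called. Rbfox1, a splicing factor of muscle and neurons, measured 51.3, 56.6, 47.2 and 54.8 in controls and 33.0, 23.5, 23.7 and 31.8 in idKO ventricles, a stable fall (log2 difference -0.90 ± 0.12 (SE), adjusted p = 0.00093 by limma). Hif1a, the oxygen-regulated factor, rose from 107 ± 10.2 to 146 ± 7.16 (log2 difference 0.45 ± 0.07 (SE), adjusted p = 0.0065 by limma), and of 25 tested hypoxia factors and targets limma and edgeR called Hif1a alone and DESeq2 called 3, with 8 at an unadjusted limma p under 0.05; Vegfa and Ldha went from 301 ± 21.7 to 335 ± 14.8 and from 870.0 ± 42.4 to 739 ± 31.7. Lists without a limma call included those of 23 clock genes (3 at an unadjusted p under 0.05, none by edgeR or DESeq2), 26 p53 targets (5, none by either tool) and 22 inhibitors and cyclins of G1 (0 by any of the 3). Of 27 immediate early genes limma called 0, with 7 at an unadjusted p under 0.05, edgeR 1 and DESeq2 3. Of 40 Wnt and Hippo genes limma called 0, with 6 unadjusted, edgeR 0 and DESeq2 1. Over all tested genes 1967 of 13144 had an unadjusted limma p under 0.05.

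Among genes of fuel transport and use a few changed by much more than the rest. Slc16a7 and Slc16a1 encode monocarboxylate transporters that carry lactate and pyruvate. Slc16a7 measured 9.68, 12.8, 11.4 and 12.9 in controls and 5.96, 3.60, 6.25 and 4.81 in idKO ventricles (log2 difference -1.06 ± 0.16 (SE), adjusted p = 0.0041 by limma), and Slc16a1 fell from 377 ± 8.78 to 289.5 ± 14.1 (log2 difference -0.38 ± 0.05 (SE), adjusted p = 0.0024 by limma), both stable. Slc2a4, the insulin-responsive glucose transporter, fell from 653 ± 10.95 to 502 ± 45.2 (log2 difference -0.38 ± 0.07 (SE), adjusted p = 0.0088 by limma). Pfkfb1, which sets the level of fructose 2,6-bisphosphate, fell from 22.6 ± 1.97 to 11.2 ± 4.37 (log2 difference -1.01 ± 0.19 (SE), adjusted p = 0.013 by limma), with idKO 1 nearest to the controls at 17.4; without control 4 its limma adjusted p was 0.052. In contrast Pfkp, a phosphofructokinase, rose from 63.9 ± 7.43 to 107 ± 16.4 (log2 difference 0.73 ± 0.11 (SE), adjusted p = 0.0037 by limma), with Pitrm1 on the other strand not called (-0.06). Over 44 tested genes of glucose transport, glycolysis and pyruvate use 7 fell and 1 rose by limma and DESeq2 called 14, with 36 negative and a median of -0.14. Stable falls also included Slc25a13, the mitochondrial aspartate and glutamate carrier citrin, from 226 ± 15.1 to 162 ± 9.16, and Ppif, cyclophilin D of the permeability pore, from 251.1 ± 4.10 to 195 ± 6.12.

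Lipid and phosphate enzymes were among the stable falls. Mid1ip1, which activates acetyl-CoA carboxylase, measured 228, 231, 209.7 and 187 in controls and 125, 119.6, 122 and 129 in idKO ventricles (log2 difference -0.78 ± 0.07 (SE), adjusted p = 5.0e-05 by limma). Its binding partner Thrsp rose from 33.0 ± 5.86 to 59.1 ± 14.3 (log2 difference 0.81 ± 0.16 (SE), adjusted p = 0.017 by limma), a call that ended without idKO 3 (limma adjusted p = 0.0504) and in 4 other analyses (up to 0.20), both fits with the atria among them. Fitm1, which helps to form lipid droplets, fell from 118 ± 4.51 to 81.5 ± 6.87 (log2 difference -0.53 ± 0.07 (SE), adjusted p = 0.0012 by limma). Entpd5, a nucleoside diphosphatase of the endoplasmic reticulum, measured 265, 268, 284 and 305 in controls and 129, 111, 134 and 143 in idKO ventricles, falling to 46.1% of control (log2 difference -1.11 ± 0.08 (SE), adjusted p = 5.0e-06 by limma). Nudt4, a hydrolase of diphosphoinositol phosphates, fell from 379 ± 43.3 to 219 ± 16.8 (log2 difference -0.78 ± 0.08 (SE), adjusted p = 0.00021 by limma).

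Respiratory chain genes showed small differences of mostly 1 sign, and the number called depended on the tool. In nuclear complex I 42 of 46 genes had a negative difference, with a median of -0.16; 1 fell by limma, 26 had an unadjusted limma p under 0.05, and edgeR called 1 and DESeq2 11. In complexes II to V 47 of 49 were negative, with a median of -0.16; 2 fell by limma, 29 had an unadjusted limma p under 0.05, and edgeR called 1 and DESeq2 11. All 15 mitochondrially encoded genes were negative (median -0.19); limma called 0, with 4 at an unadjusted p under 0.05, edgeR 0 and DESeq2 1. The groups did not overlap, idKO below, in 20 of the complex I genes and 23 of complexes II to V, beside 5.81% of all tested genes. Of all 13144 tested genes 6837 had a negative difference and 1967 an unadjusted limma p under 0.05. Over the same genes edgeR called 77 higher and 183 lower, and DESeq2 195 and 342. The highest of the 4 parts by level had a median of -0.05, beside -0.01 for all tested genes. As examples, Ndufs1 of complex I went from 1203 ± 13.0 to 1042 ± 71.8 (limma adjusted p = 0.10) and Atp5b of the ATP synthase from 7444 ± 174 to 6611 ± 229.6 (adjusted p = 0.23). The 78 mitochondrial ribosomal protein genes had a median of -0.13 and 3 falls by limma (DESeq2 called 6), of which Mrpl39, from 108 ± 6.34 to 81.2 ± 4.57, kept its call on leaving out any single library. Genes of the cytosolic ribosome went the other way, with 68 of 85 positive, a median of 0.05 and 0 calls by limma, edgeR or DESeq2 (7 at an unadjusted p under 0.05). Medians of complex I, complexes II to V and mitochondrially encoded genes stayed negative under all 5 scalings tried, but shrank to -0.08, -0.07 and -0.02 after quantile normalisation. With reads on a per-million scale of all reads they were -0.06, -0.05 and -0.08, beside 0.09 for all genes. The share of mitochondrial reads moved with genotype in 3 of 4 idKO libraries, and its part in these differences was not tested.

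**Figure D3:**
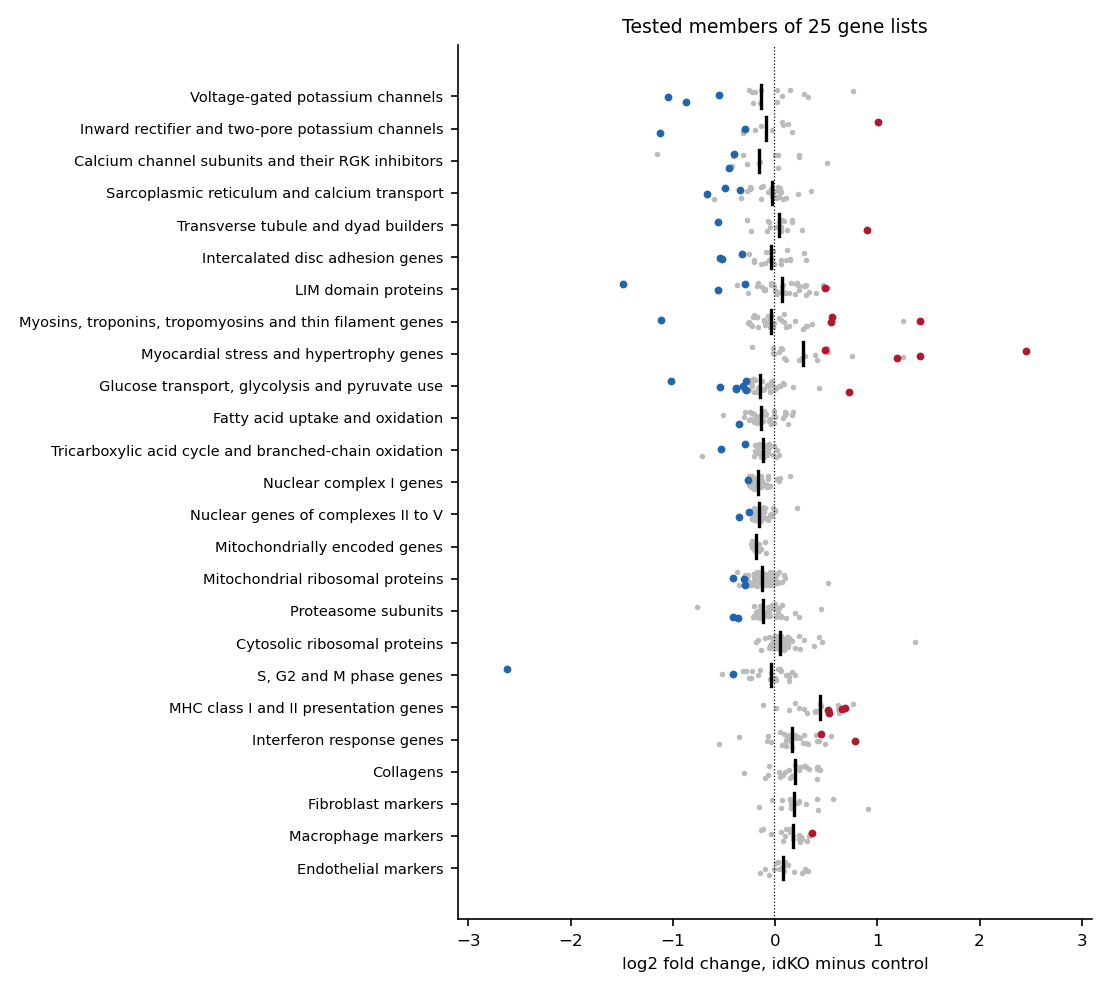
Log2 fold changes in ventricles of the tested members of 25 gene lists, 1 point per gene, with called rises in red, called falls in blue and other members in grey; the black bar is the list median and the dotted line the median of all tested genes. Mitochondrial lists form narrow clouds just left of the line, antigen presentation genes lie to its right, and ion channel lists scatter with single genes far to the left.

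Among cell cycle genes Cenpf fell steeply and most of the rest did not pass. Cenpf (chromosome 1, 189640606 to 189688086), a large kinetochore and microtubule-binding protein, measured 47.2, 41.8, 58.7 and 60.4 in controls and 9.07, 5.46, 9.05 and 7.03 in idKO ventricles, and fell to 14.7% of control (log2 difference -2.62 ± 0.16 (SE), adjusted p = 1.0e-06 by limma). Cenpa, the centromeric histone, fell from 43.1 ± 2.99 to 32.3 ± 2.86 (log2 difference -0.41 ± 0.09 (SE), adjusted p = 0.028 by limma), a call that leaving out control 2, 3 or 4 or idKO 2 or 3 ended (adjusted p up to 0.083). The other 22 of 24 tested genes of S, G2 and M phase did not pass; Pcna, the sliding clamp of replication, went from 44.7 ± 4.35 to 36.7 ± 4.47 and Smc4, a condensin subunit, from 24.0 ± 1.61 to 24.1 ± 2.33. Polr1e, a subunit of RNA polymerase I, was higher in idKO at 28.5, 26.6, 24.8 and 24.9 in controls and 57.9, 54.0, 53.9 and 38.8 in idKO ventricles, and its rise was stable (log2 difference 0.93 ± 0.11 (SE), adjusted p = 0.00069 by limma). It overlaps Fbxo10 on the other strand, which was not called (0.18), and none of the 20 other tested genes of that machinery was called, among them Ncl from 302 ± 13.5 to 280.1 ± 8.22.

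Antigen presentation genes had mostly higher values, 4 of them by test. Of 21 tested genes of MHC class I and II presentation 4 rose and none fell by limma, DESeq2 called 7, and 20 had a positive difference, with a median of 0.44. H2-Ab1 and H2-Aa, the class II chains, measured 58.3, 49.0, 45.9 and 44.3 in controls and 66.3, 93.7, 72.2 and 90.3 in idKO ventricles for H2-Ab1 (log2 difference 0.69 ± 0.12 (SE), adjusted p = 0.0077 by limma) and rose from 60.5 ± 8.67 to 95.8 ± 14.7 for H2-Aa (log2 difference 0.65 ± 0.11 (SE), adjusted p = 0.0091 by limma). Cd74, the invariant chain, rose from 127 ± 12.9 to 183 ± 33.4 and B2m, the class I light chain, from 153 ± 21.1 to 222 ± 38.6. The calls of Cd74 and B2m were lost on leaving out control 3 or 4 or idKO 2 or 4, and also control 2 for Cd74 and control 1 for B2m, with limma adjusted p values of up to 0.11 and 0.12. The atrial differences of H2-Ab1 and H2-Aa were 0.35 and 0.41, not called, though the atrial groups did not overlap. H2-Ab1 measured 56.3 to 66.8 in control and 71.1 to 89.5 in idKO atria, and H2-Aa 74.3 to 82.1 and 91.2 to 114. Atrial values of B2m did not overlap either, and those of Cd74 did. The interaction with chamber was not called for H2-Ab1 or H2-Aa (limma interaction adjusted p = 0.75 and 0.86). Macrophage markers moved with these genes: 17 of 20 were positive and 1, Lyz2, rose by limma, with 3 called by DESeq2 (median 0.18), and their summed level was 493 to 513 in controls and 542 to 657 in idKO ventricles. Lyz2 went from 151 ± 6.98 to 196 ± 22.8, and leaving out control 1, 3 or 4 or idKO 1 or 2 ended its call (adjusted p up to 0.10), as did both fits with the atria. The part of macrophages in the rise of antigen presentation genes was not tested.

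Markers of the other cell types were mostly not called. Their counts at an unadjusted limma p under 0.05 stand beside 1967 of 13144 over all tested genes. Of 16 fibroblast markers 14 were positive and limma called 0, with 3 at an unadjusted p under 0.05 and 0 by edgeR or DESeq2 (median 0.19). They had a summed level of 2795 to 3172 in controls and 2886 to 4424 in idKO ventricles. Of 19 endothelial markers 15 were positive and limma, edgeR and DESeq2 called 0 (2 unadjusted), with sums of 2293 to 2406 and 2279 to 2484. Atrial markers other than Nppa were not called, and the defining gene Sln, the atrial inhibitor of the calcium pump, measured 1.09 to 4.88 in controls and 2.11 to 4.14 in idKO ventricles. Mesothelial markers had lower values, with 7 of 9 negative, Msln called and sums of 50.0 to 65.0 and 25.5 to 43.5. Msln measured 10.4, 7.60, 8.80 and 6.96 in controls and 5.20, 2.75, 2.16 and 3.38 in idKO ventricles (log2 difference -1.14 ± 0.21 (SE), adjusted p = 0.011 by limma). All 6 tested blood cell markers were negative, with 0 calls by limma, edgeR or DESeq2 (1 unadjusted) and sums of 369.6 to 458 and 199 to 412. Defining markers of adipocytes (Adipoq, Plin1) had at most 8 reads in any ventricle. Of the 15 ventricular muscle markers 6 fell and 11 were negative, with a median of -0.23; Myl2 went from 8396 ± 316 to 7182 ± 491 and Tnnt2 from 10697 ± 725 to 10527 ± 762, neither called. The part of cell composition in the ventricle differences was not tested.

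Of the other genes named by size, several are of cell surface, secreted or little described proteins. Wif1, a secreted Wnt inhibitor, measured 6.58, 10.2, 10.2 and 12.5 in controls and 4.36, 3.85, 2.31 and 5.60 in idKO ventricles (log2 difference -1.13 ± 0.22 (SE), adjusted p = 0.019 by limma), and leaving out control 2, 3 or 4 or idKO 2 ended its call (limma adjusted p up to 0.071). Abca12, a lipid transporter best known from skin, fell from 10.2 ± 0.673 to 4.95 ± 1.14 (log2 difference -0.93 ± 0.15 (SE), adjusted p = 0.0070 by limma) and Ano10, of the anoctamin family, from 67.8 ± 3.69 to 38.0 ± 5.66 (log2 difference -0.83 ± 0.10 (SE), adjusted p = 0.00048 by limma), both stable. Aqp4, a water channel, measured 6.33, 7.38, 6.39 and 11.8 in controls and 4.44, 2.58, 1.02 and 3.78 in idKO ventricles (log2 difference -1.24 ± 0.28 (SE), adjusted p = 0.041 by limma), and its call was lost in 12 of the other analyses (limma adjusted p up to 0.13). Among the rises, Shisa4 went from 4.45 ± 1.33 to 10.5 ± 3.04 and lost its call in 8 analyses (limma adjusted p up to 0.10). Oas2, an interferon-induced enzyme, rose from 5.16 ± 0.860 to 9.64 ± 2.05 (log2 difference 0.78 ± 0.16 (SE), adjusted p = 0.028 by limma), and Cdc14b, a phosphatase, from 22.7 ± 6.24 to 36.2 ± 2.40 (log2 difference 0.68 ± 0.14 (SE), adjusted p = 0.026 by limma). All 4 of these calls were lost on leaving out control 2 or 4 or idKO 2 or 3. Leaving out control 1 also ended those of Aqp4 and Shisa4, control 3 those of Aqp4, Oas2 and Cdc14b, and idKO 1 those of Shisa4 and Cdc14b, with limma adjusted p values of up to 0.090 for Oas2 and 0.081 for Cdc14b. Both fits with the atria also ended the call of Oas2. Cdc14b overlaps Aaed1 on the same strand, which had a control mean of 72.8 and was not called (-0.10). It also overlaps 1810034E14Rik on the other strand, not called (0.03), so reads of these genes may not be told apart. Stable falls of smaller size included Apobec2, a muscle protein of the cytidine deaminase family, from 249.7 ± 3.84 to 189 ± 1.16 (log2 difference -0.40 ± 0.05 (SE), adjusted p = 0.00075 by limma), Ezr, the membrane and actin linker ezrin, from 81.7 ± 2.07 to 55.2 ± 7.25, Phldb1, a membrane and microtubule adaptor, from 172 ± 9.43 to 124 ± 2.45, and Mpped2, a metallophosphoesterase, from 23.9 ± 1.14 to 13.9 ± 1.10. The idKO values of Apobec2 lay between 188 and 191, against 245 to 254 in controls.

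Each of the called genes was then read in the atria of the same mice, as a side by side description. In atria limma called 3 of 14523 genes (0.0207%), Esr1, Lipo2 and Prkg1. Of the 70 ventricular rises 68 were tested in atria, with a median of 0.06 (log2), and of the 197 falls 191 were tested, with a median of -0.09 and no call. The interaction, fitted on all 16 libraries, was called in 44 of 14871 genes (0.296%), of which 4 were ventricular rises (Esr1, Nppa, Nppb and Polr1e) and 40 ventricular falls. That fit leaves out that ventricle and atrium come from the same mouse: with the mouse as replicate block 71 genes were called, all 44 among them, with 15 ventricular rises and 51 falls, and leaving out 1 mouse gave 19 (idKO 2) to 39 (idKO 4). Meis2 and Esr1 values of idKO mice also differed by chamber, and neither measures removal of the floxed exons. In atria Meis2 measured 18.7 to 22.1 in controls and 15.3 to 19.0 in idKO mice, and Esr1 reached 98.7 to 322 in idKO atria, below all idKO ventricles. The part of these levels in the chamber difference was not tested. Abcc9 went from 49.5 ± 5.58 to 51.6 ± 5.23 in atria (log2 difference 0.06), and the ventricular minus the atrial effect was -1.19 (limma interaction adjusted p = 0.00028). Gja1 went from 304 ± 62.1 to 302 ± 34.4 in atria (interaction -1.12, limma adjusted p = 0.0034). For Kcnh2 and Ryr2 the call depended on the block: limma interaction adjusted p values were 0.14 and 0.079 without it and 0.027 and 0.014 with the mouse as replicate block. Acta1 measured 1.97, 8.75, 3.63 and 2.55 in control atria and 9.32, 11.8, 96.4 and 1.75 in idKO atria, so that idKO 3 stood far above the rest, and its atrial difference was 1.56 ± 0.81 (SE, limma adjusted p = 0.97). Ddit4 measured 17.7, 20.6, 19.8 and 39.2 in control atria and 53.4, 71.5, 39.9 and 31.9 in idKO atria, with overlap between groups and an atrial difference of 0.99 ± 0.26 (SE, limma adjusted p = 0.82). Neither was called in atria. Lipo2, a lipase-like gene that overlaps Lipo3, belongs to a gene family whose copies can share reads. It measured 0.286, 0.487, 0.956 and 0.742 in controls and 7.401, 7.66, 7.46 and 6.16 in idKO ventricles, and went from 0.648 ± 0.196 to 5.29 ± 1.46 in atria. Gm14416 likewise passed the ventricle filter through the idKO group alone. Prkg1 (chromosome 19, 30564489 to 31765033), a cyclic GMP-dependent kinase, rose in ventricles from 11.3 ± 2.78 to 19.6 ± 2.44. That call was lost on leaving out control 2 or 4 or idKO 1, 2 or 3 (limma adjusted p up to 0.078). In atria Prkg1 rose from 12.9 ± 1.53 to 32.6 ± 2.35 (log2 difference 1.28 ± 0.10 (SE), adjusted p = 0.00024 by limma). The part of the transgene in these 2 rises was not tested.

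**Figure D4:**
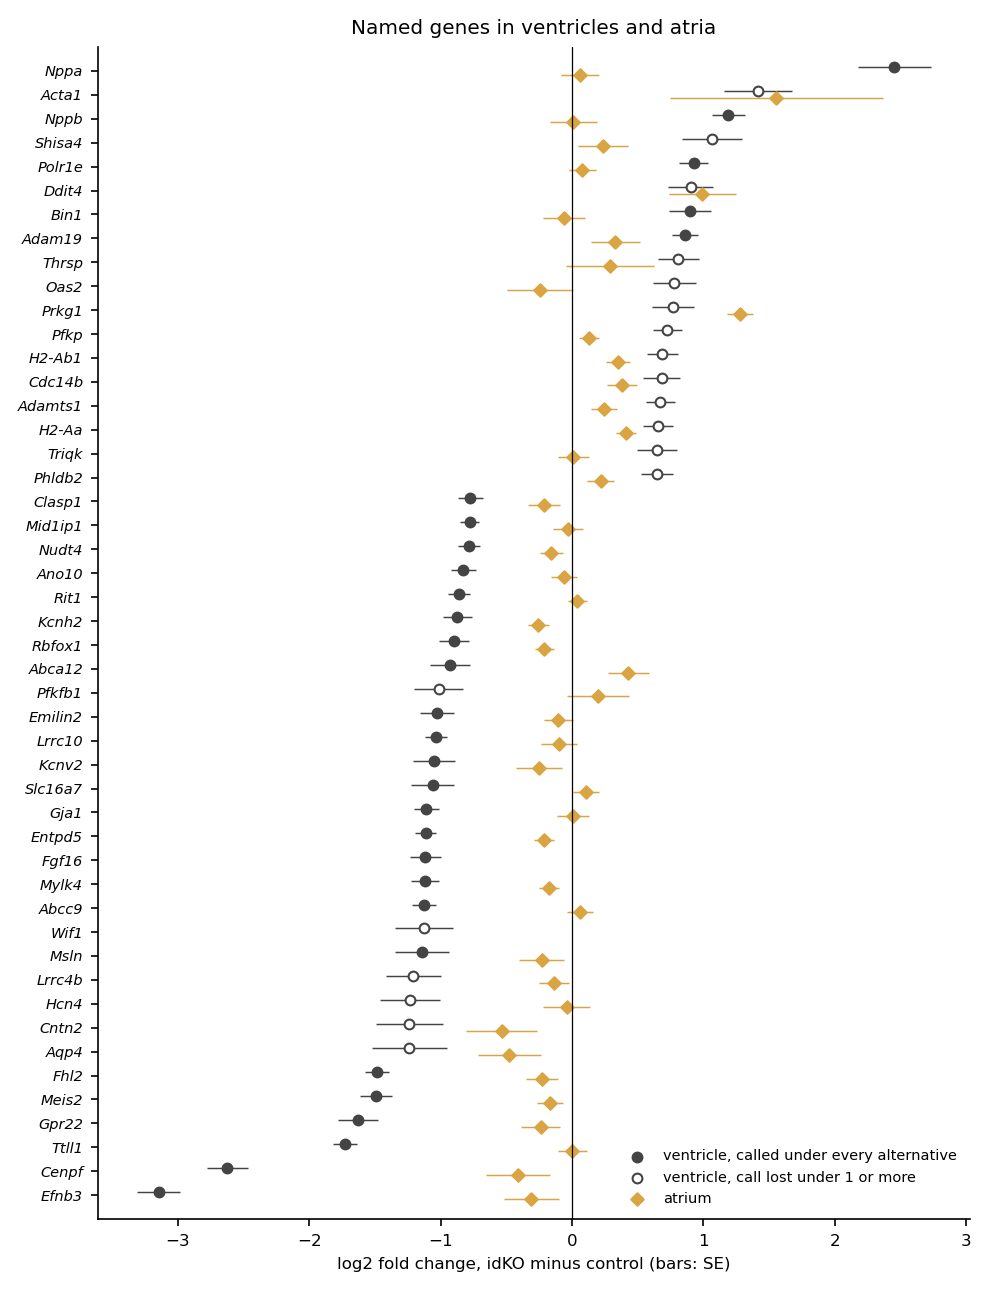
Log2 fold changes of idKO against control for 48 of the genes named by size, Esr1 not among them, in ventricles (circles) and atria (diamonds), 4 against 4 libraries each, with bars for SE. Filled circles are ventricular calls kept under all 24 other analyses and open circles those lost under at least 1. Atrial values run from -0.53 (Cntn2) to 0.43 (Abca12) apart from the higher ones of Acta1, Ddit4 and Prkg1, and Fgf16 and Wif1 were not tested in atria.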

How the data were processed

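Ventricles and atria of 8 mice were profiled by RNA-seq (20 ng of RNA, per the labels' protocols), with RSEM 1.3.1 and cutadapt on GRCm38, per the submitters' processing notes. The deposited values are a normalised signal; no source used here names the tool that scaled them or any filter on genes. From the values, each is (reads + 0.5) on a per-million scale of an effective library size, and the deposited signal gave back whole reads for 100% of values within 0.01. Samples were grouped by genotype and chamber labels. The table's 16118 genes included 206 without a name, of which 205 were named from GENCODE vM21; positions are GENCODE's on GRCm38.

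Genes with a per-million share of at least 1 of the column sum in 4 of 8 ventricles (13144) were tested on log2(value + 1) with limma 3.58.1 (R 4.3.3), trended prior and Benjamini-Hochberg adjustment at 0.05. The pseudocount makes fold changes of low genes too small. The interaction with chamber used all 16 libraries. Alternatives covered pseudocounts, filters, scalings, edgeR 4.0.16, DESeq2 1.42.0 and voom on recovered reads, joint fits with and without the mouse as a block, and leaving out each library. Same-numbered ventricle and atrium libraries come from the same mouse; control and idKO mice are different animals and were not paired. On simulated reads of 13144 genes limma recovered 57% of 100 genes changed 1.5-fold and 79% of 100 changed 2-fold. Beside these it made 13 false calls among the genes left unchanged.

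Genes were named by rule: up to 20 rises and 30 falls of largest size with no overlap between groups and a per-million share of at least 5, called members of 68 gene lists, and up to 4 abundant uncalled members of a list. A few genes that met the rule are not reported here. The members and lists were chosen with earlier results of these data known. Overlapping genes on opposite strands may share reads, since no source used here states that strand was used in counting. Those on the same strand may share reads too. Library depths limit genes of few reads, and a count of 0 allows up to 3 reads.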

Additional observations from a re-analysis of the deposited data

Results flagged for a closer look

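In 1 of 98 groups of 4 libraries checked over 49 of the genes named by size, 1 library lay far from the other 3; chance gives about 1 such group in 20. Lrrc10, the heart muscle leucine-rich repeat protein, measured 96.6 in idKO 3 against 118, 121 and 121 in the other idKO ventricles. Its groups did not overlap, and its call was kept when that library was left out.

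The genotype effect differed between ventricles and atria, by the limma interaction at an adjusted p under 0.05, for 23 of the genes named by size. As the ventricular minus the atrial effect on the log2 scale, it was above zero for Esr1 5.82, Nppa 2.39, Nppb 1.18 and Polr1e 0.85. It was below zero for Efnb3 -2.83, Cenpf -2.21, Ttll1 -1.73, Gpr22 -1.39, Abca12 -1.35, Meis2 -1.33, Fhl2 -1.25, Abcc9 -1.19, Slc16a7 -1.17, Gja1 -1.12, Mylk4 -0.95, Lrrc10 -0.94, Emilin2 -0.93, Entpd5 -0.90, Rit1 -0.90, Ano10 -0.77, Mid1ip1 -0.75, Rbfox1 -0.69 and Nudt4 -0.63. With the mouse as replicate block all 23 were called. On leaving out 1 mouse the interaction was no longer called in at least 1 case for Nppb, Polr1e, Gpr22, Slc16a7, Lrrc10, Emilin2, Ano10, Mid1ip1, Rbfox1 and Nudt4 (limma adjusted p 0.054 for Gpr22 to 0.26 for Rbfox1). Efnb3, the ephrin ligand, and Cenpf, the kinetochore protein, had the most negative values of this set, and Esr1 is carried in part by the transgene.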

How the results depend on the processing

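Under 24 other analyses no called gene changed direction, and 68 of 267 were called wherever tested. Leaving out 1 library could not change the direction of the 263 called genes without overlap between groups. The counts of genes called higher and lower, 70 and 197 in the analysis reported, were 30 and 118 without a filter on low values, 19 and 70 without a trended prior, 195 and 342 with DESeq2 on recovered reads, and 153 and 108 with reads on a per-million scale of all recovered reads, chosen after seeing the data. They were 112 and 241 when atria and ventricles were fitted jointly, then 119 and 253 with the mouse as replicate block, whose consensus correlation was 0.22. Leaving out 1 library gave 35 (without control 4 or idKO 2) to 103 (without idKO 4) higher, and 97 (without control 4) to 256 (without idKO 4) lower. The interaction, 44 genes, gave 71 with the mouse as replicate block and 19 (without idKO 2) to 39 (without idKO 4) on leaving out 1 mouse. The cause of these changes was not tested. The other 10 settings outside single-library removal stayed within 1.5 times of both counts. The share of lower calls was 73.78% in the analysis reported, 63.69% with DESeq2 and 41.38% with all recovered reads. Genes of few reads, such as Scn10a and Lipo2, are limited by depth.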
